A study of Mus musculus with 3 samples.

Results

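The genes described here are 10 mouse genes whose messenger RNAs encode proteins of haploid spermatids and sperm: the transition protein genes Tnp1 and Tnp2, the protamine genes Prm1 and Prm2, the tail genes Odf1, Akap4 and Smcp, and Crisp2, Acr and Spata18. They were taken by name, and the small RNAs assigned to them were those that matched an annotated transcript of the gene letter for letter over their whole length, with the 2 strands kept apart. Of 2219118 listed small RNA sequences, 204 distinct sequences matched the 10 genes in the sense direction and 9 in the antisense direction. The genes are 10 of 21951 annotated protein-coding genes.

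The study sequenced small RNAs bound to Tdrd1, a Tudor-domain protein of germ cells, or to Mili, a Piwi protein, in extracts of C57BL/6 mouse testes. One library came from Tdrd1 complexes of adult testis, with no genotype in its sample labels, one from Mili complexes of adult wild-type testis, and one from Mili complexes of testis of Tdrd1 knockout animals at 15 days after birth. Genotype and age therefore cannot be told apart between the Mili libraries, each group is 1 library, and the labels state neither how many animals each extract pooled nor which cells carry the knockout. The deposited list joins the 3 libraries without a library, a read number or a strand for any sequence, so the values below describe the joined list, and neither the knockout nor the choice of bound protein was compared. All 8 spermatogonial and meiotic marker genes searched had sense sequences, between 14 and 311 each. Of 5 Sertoli cell markers 4 had sense sequences, between 2 and 10 each, and Rhox5 had 0. Among all protein-coding genes 71.0% had at least 1. Among 5 Leydig cell markers, Cyp17a1 and Hsd3b6 had 0 sense sequences and Star had 78. The parts of these cell types in the results below were not tested.

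In spermatids the histones of the nucleus give way first to transition proteins and then to protamines, small basic proteins that pack the DNA of the sperm head, while the tail and the acrosome are built. The mRNAs of many of these proteins are made early and stored before they are translated. Small RNAs bound to Piwi proteins, the piRNAs, usually begin with uridine (U), and those made by the reciprocal cutting of 2 opposite strands (the ping-pong cycle) tend to carry adenosine (A) at position 10 and to overlap by 10 nt at their 5′ ends. Juvenile testis of the knockout's age holds meiotic cells and not yet spermatids, as is known of mouse development.

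Representative sense sequences are shown first because the first base of most of them differs from that of the usual piRNA. For each gene the 5′ end with the most different 3′ ends was taken, and the longest sequence of at most 30 nt at that end is printed 5′ to 3′ as listed, with T standing for U. Capitals mark the first and the last base. Coordinates are those of the deposited list on mm9 (NCBI mouse build 37).
Tnp1, chr1:73062349-73062374, minus strand, coding sequence: AagggcgtcaagagaggtggaagcaA
Tnp2, chr16:10788380-10788405, minus strand, coding sequence: CcgtcaggaggcggaaacggactcaC
Prm1, chr16:10796448-10796473, minus strand, 3′ untranslated region: AggagcctgctaaggaacaatgccaC
Prm2, chr16:10791663-10791689, minus strand, coding sequence: AggaaatgtaggaggcaccatcactaA
Odf1, chr15:38149229-38149254, plus strand, coding sequence: AaagaaggtggacagagaattaagaC
Akap4, chrX:6654566-6654592, plus strand, coding sequence: AagagacctgaagagcaatgccaagaC
Smcp, chr3:92388036-92388063, minus strand, coding sequence: AaggcaactggaaccagaagaagtcaaA
Crisp2, chr17:40901801-40901827, minus strand, 3′ untranslated region: AatggaagaatgggctgtagttacatC
Acr, chr15:89400272-89400301, plus strand, coding sequence: AgaagattgtcatccatgagaaatacaacG
Spata18, chr5:74059896-74059923, plus strand, coding sequence: TgagaaacatctgcaaaatctgaaggaA
At the Smcp end a sequence of 31 nt was also listed and is not printed. Of these 10 sequences, 8 began with A, 1 with C (Tnp2) and 1 with U (Spata18). In the transcript the base just before the first was C for Tnp1, Prm1, Prm2, Akap4, Smcp, Crisp2 and Acr, U for Odf1, G for Tnp2 and A for Spata18. The base just after the last was A for Tnp2, Odf1, Akap4 and Crisp2 only. It was C for Prm1 and Smcp, U for Acr, and G for Tnp1, Prm2 and Spata18.

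Several sequences often shared a 5′ end and stopped at different bases. The Prm2 end shown above had 4 such sequences, all within its coding sequence, and they are printed with the first and last base in capitals to show where they stopped.
Prm2, 23 nt: AggaaatgtaggaggcaccatcA
Prm2, 24 nt: AggaaatgtaggaggcaccatcaC
Prm2, 25 nt: AggaaatgtaggaggcaccatcacT
Prm2, 27 nt: AggaaatgtaggaggcaccatcactaA
The base that follows in the transcript was C after the first, U after the second, A after the third and G after the fourth. Tnp1 and Odf1 likewise had a 5′ end with 4 different 3′ ends. Over the 10 genes the 204 sense sequences began at 160 different 5′ ends, so that neighbours share a transcript and often an end and are not independent observations.

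All 10 genes had sense sequences, against 71.0% of all protein-coding genes with at least 1, and all 10 lay above the median density of 2.89 distinct sense sequences per kb of exon, against 50.0% of all genes by construction. The median of the 10 genes was 12.2 per kb. In whole-testis extracts the number of cells that hold a transcript and its amount per cell cannot be told apart. Read numbers were not in the list, so that density counts different sequences and not molecules.

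The genes of nuclear packing spanned a wide range. Tnp1, encoding the first transition protein, had 36 sense sequences on 437 bp of exon (82.4 per kb, rank 360 of 21951), between chr1:73061701-73062441 on the minus strand. Prm2, the protamine made as a longer precursor, had 37 (41.4 per kb, rank 1364) at chr16:10791493-10792115. Its neighbours on the same strand had fewer: Tnp2 had 8 (14.4 per kb) at chr16:10788374-10788694, and Prm1 had 7 (12.3 per kb) at chr16:10796448-10796865. In the 8492 bp from Tnp2 to Prm1, which also hold Prm3, 63 sequences were listed, of which 54 were sense and 7 antisense to these 4 genes and 2 matched no exon.

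The tail genes followed. Odf1, a protein of the outer dense fibres that stiffen the tail, had the most sequences of the 10 genes, 39 (35.3 per kb, chr15:38149096-38156420, plus strand). Smcp, a protein of the mitochondrial capsule in the midpiece, had 11 (12.05 per kb, chr3:92387846-92392803, minus strand). Akap4, the main scaffold of the fibrous sheath and the only X-linked gene of the 10, had 25 on the longest of the transcripts, 3021 nt (8.26 per kb, chrX:6644686-6655692, plus strand). Crisp2, a cysteine-rich secretory protein of the acrosome and tail, had 28 (9.94 per kb, chr17:40901733-40930213, minus strand). The lowest densities were those of Acr, the acrosomal protease acrosin, with 6 sequences (3.83 per kb, chr15:89399782-89400321, plus strand), and of Spata18, a mitochondrial quality-control protein gene, with 7 (3.32 per kb, chr5:74050491-74063741, plus strand). No gene of the 10 but Tnp1 lay above the 41.4 per kb of Prm2, and Acr and Spata18 lay close to the median of all genes.

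**Figure D1:**
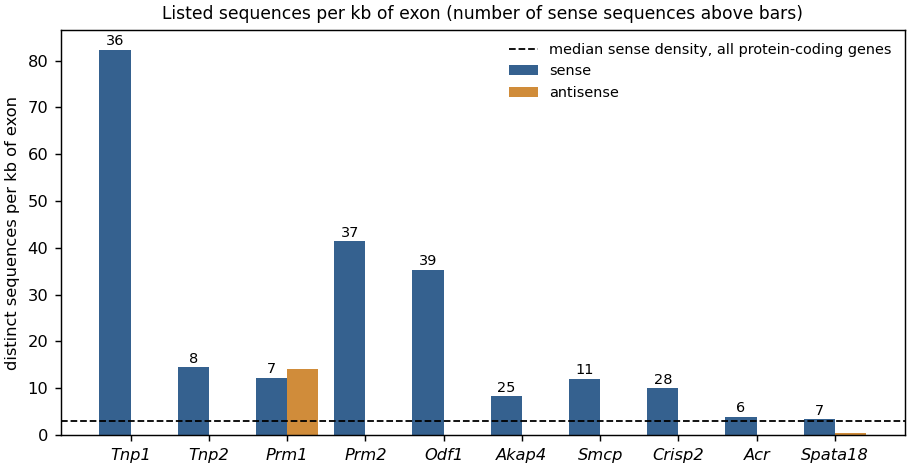
Distinct listed sequences per kb of merged exon for each of the 10 genes (y axis), sense in blue and antisense in orange, with the number of sense sequences above each bar and the median sense density of all protein-coding genes as a dashed line. Tnp1 stands at 82.4 per kb, Prm2 at 41.4 and Odf1 at 35.3, Acr and Spata18 stand just above the line, and Prm1 has a taller antisense than sense bar.

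Sequences were assigned by matching annotated transcripts, so that their place in exons follows from the rule. Few sequences without an exon match were listed between the first and last sense sequence of each gene. Odf1, Akap4 and Crisp2 were covered over 7325, 11007 and 28481 bp of genome from the first to the last sense sequence, introns included, and every sequence listed within these ranges matched an exon. Of all 10 such ranges, those of Prm1 and Spata18 held 1 sequence each that matched no exon of the gene. Every listed interval had exactly the length of its sequence. Of the sense sequences, 1 of Smcp matched across an exon junction of the transcript but was listed as an unbroken interval. Whether it came from spliced RNA therefore cannot be told.

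Few of the sense sequences began with U. U was the first base of 29 of 204 (14.2%, 95% Clopper-Pearson interval 9.73 to 19.8%), against 67.6% of the 1159126 sense sequences of all other protein-coding genes. A was the first base of 133 (65.2%, 58.2 to 71.7%), against 15.3% elsewhere. In the transcripts of the 10 genes, weighted by their sequences, U made up 20.96% and A 28.7% of bases. A at the first position was above the composition of the transcripts. U was below it over all 204 sequences, but with each 5′ end counted once (16.25%, 10.9 to 22.9%) the interval held 20.96%. The interval without Prm2 (17.4%) held it too. By gene, the U share exceeded that of the gene's transcript in Tnp1 (22.2% against 18.1%), Acr (33.3% against 22.8%) and Spata18 (42.9% against 20.98%). It was lower in the other genes, by little in Crisp2 (28.6% against 29.05%). All intervals cover counting error only.

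Of the genes of nuclear packing, Prm1, Prm2 and Tnp2 had 0 U starts and Tnp1 had 8. Prm2 had 0 of 37 (0 to 9.49%) and 27 began with A, on a transcript with 14.01% U. Prm1 had 0 of 7 and Tnp2 0 of 8, numbers that allow shares of up to 41.0% and 36.9%. In Tnp1 8 of 36 began with U (22.2%), at 7 different 5′ ends, and 20 of 36 began with A.

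In each tail gene A starts outnumbered U starts. Odf1 had 4 U starts of 39 (10.3%) and 29 A starts. Akap4 had 2 of 25 (8%) and 17 A starts, and Smcp had 2 of 11 and 8 A starts. The 3 remaining genes had higher shares: Crisp2 had 8 of 28 (28.6%), Acr 2 of 6 and Spata18 3 of 7. For Acr and Spata18 the numbers are too small to place them, since the interval for Spata18 ran from 9.90 to 81.6%. A was still the most frequent first base in each of the 10 genes, with no gene below 50%.

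**Figure D2:**
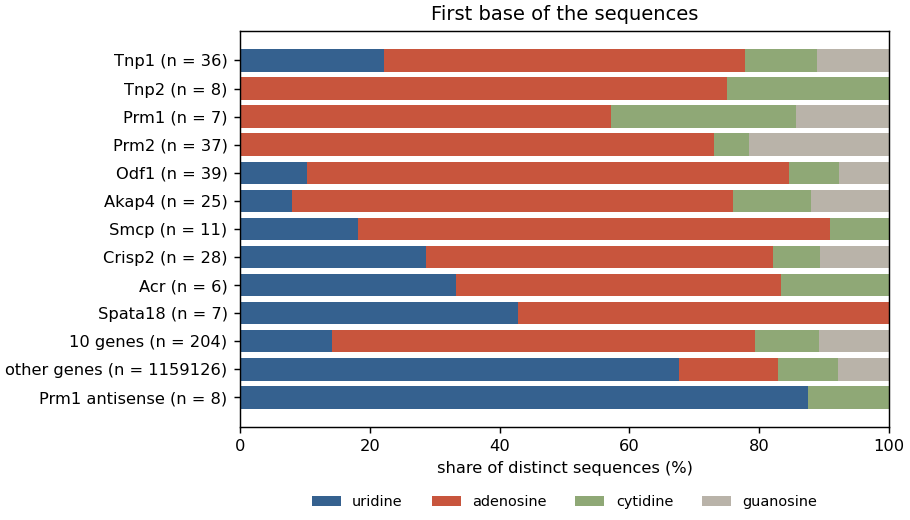
Share of distinct sequences (x axis, %) by first base for the sense sequences of each gene, of the 10 genes together and of all other protein-coding genes, and for the antisense sequences of Prm1, with the number of sequences in brackets. Adenosine is the widest segment in each of the 10 genes, uridine is the widest in the other genes (67.6%) and in Prm1 antisense (87.5%).

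Genes with so few U starts were rare in the list. The limit of 25%, and the smallest numbers of sequences asked of a gene, were chosen after the data were seen. Of the 10 genes, each of which had 5 or more sense sequences, 7 had a U share under 25%, against 1.47% of all protein-coding genes with 5 or more (186 of 12654). Of the 5 genes with 20 or more sense sequences, a number reached by 42.5% of all genes, 4 were under 25%, against 0.375% of all such genes (35 of 9334). Just outside this limit stood Crisp2 with 28.6%, and just inside it Tnp1 with 22.2%. The median gene of the 9334 had 65.6% U starts.

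Ordered by U share from the lowest, Prm2 stood at rank 1 of these 9334 genes, Akap4 at 2, Odf1 at 4, Tnp1 at 25 and Crisp2 at 68. Between Akap4 and Odf1 stood Gsg1, a germ cell gene with 2 U starts of 23, chosen for mention after its value was seen.

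The bases around the ends were as uneven as the first base. The position before the first base held C in 53.9% of the sense sequences of the 10 genes, against 27.5% in other genes. Counting a 5′ end as lying between a pyrimidine (C or U) and A when the base before it was C or U and the first base A, 108 of 204 ends did so (52.9%, 45.8 to 59.9%), against 6.08% in other genes. The same neighbours, C or U followed by A, made up 12.1% of the pairs of adjacent bases in the 10 genes' transcripts. Among sequences that began with A alone, C or U came before in 108 of 133 (81.2%), against 39.7% of the A-starting sequences of other genes. This measure was chosen after the data were seen.

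The 3′ ends looked alike. The last base was C in 107 of 204 sequences (52.5%), against 26.5% elsewhere, and the next base of the transcript was A in 63.2%, against 30.5%. A 3′ end between C or U and A was found for 108 of 204 (52.9%), the same number as for 5′ ends, against 15.2% in other genes. Both ends of this kind were found in 60 sequences (29.4%), against 1.42%. U followed the last base in 12.7%, against 26.0% elsewhere.

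**Figure D3:**
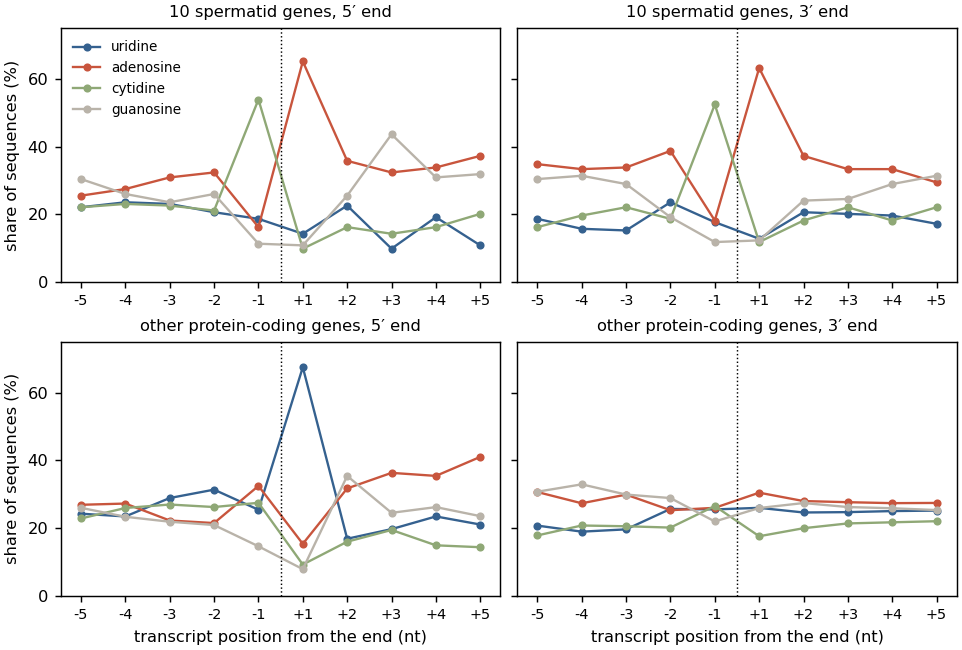
Share of each base (y axis, %) at 5 transcript positions on either side of the 5′ end (left) and of the 3′ end (right) of sense sequences, for the 10 genes (top) and all other protein-coding genes (bottom); the dotted line is the end, and at a 5′ end the sequence lies to its right, at a 3′ end to its left. In the 10 genes C peaks just before and A just after the line at both ends (53.9% and 65.2%, then 52.5% and 63.2%), whereas in other genes the peak is U at the first base and the 3′ end is nearly flat.

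Gene by gene, Prm2 had the largest share of 5′ ends between C or U and A, 25 of 37 (67.6%), followed by Odf1 with 25 of 39 (64.1%) and Smcp with 7 of 11. Akap4 had 14 of 25 (56.0%), Tnp1 15 of 36 (41.7%) and Crisp2 11 of 28 (39.3%). Prm1 and Spata18 had 3 of 7 each, Tnp2 3 of 8 and Acr 2 of 6. At the 3′ end the shares were 64.9% for Prm2, 56.0% for Akap4, 53.8% for Odf1, 53.6% for Crisp2 and 38.9% for Tnp1. Acr was the exception, with 1 of 6. All 7 Prm1 sense sequences ended in C.

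Among the 9334 genes with 20 or more sense sequences, Prm2 stood at rank 1, Odf1 at 2, Akap4 at 6, Tnp1 at 18 and Crisp2 at 20 by the share of such 5′ ends. By the share of such 3′ ends Prm2 stood at rank 1, Akap4 at 2, Odf1 at 4, Crisp2 at 5 and Tnp1 at 37. The median gene had 5.93% and 15.0%. The U share and both end shares come from the same sequences, and a first base A cannot be a U, so these orders are 1 description and not 3.

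**Figure D4:**
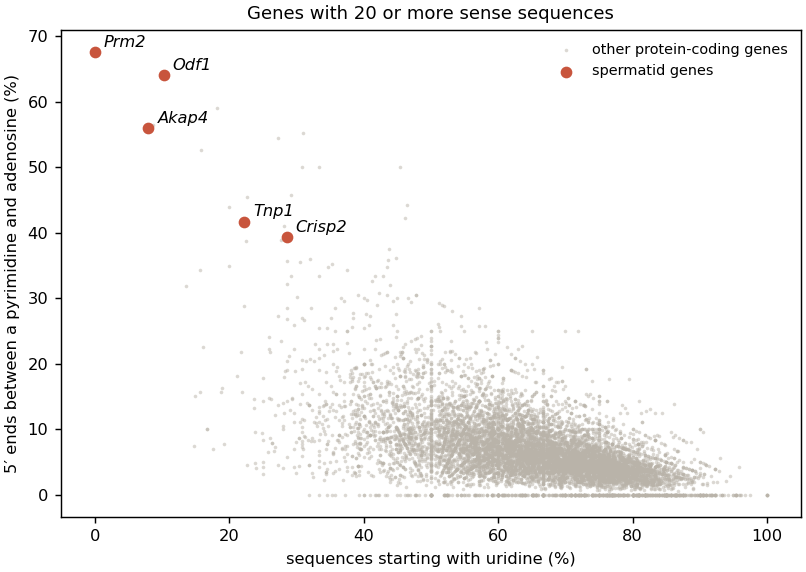
Each point is 1 protein-coding gene with 20 or more sense sequences (9334 genes), by the share of its sequences that start with uridine (x axis, %) and the share of its 5′ ends that lie between C or U and A (y axis, %); the 5 spermatid genes that reach 20 sequences are in red. Prm2, Odf1 and Akap4 lie at the upper left edge, and Tnp1 and Crisp2 lie lower but apart from most genes.

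The sequences that did begin with U were described apart. Of the 29, 12 (41.4%) had a 3′ end between C or U and A, against 14.6% of the U-starting sequences of other genes, and 9 (31.03%) ended in C, against 25.7%. Those that began with A had such a 3′ end in 56.4%, and those that began with G in 14 of 22. The mean length of the sequences that began with U was 26.1 ± 1.68 nt (SD, n = 29), next to 25.9 ± 2.02 nt (SD, n = 133) for those that began with A.

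The sequences were also shorter than those of other genes. Their mean length was 25.9 ± 1.95 nt (SD, n = 204), against 27.4 ± 1.60 nt (SD, n = 1159126), although the protocol took RNA of about 28 to 30 nt from the gel. Sequences of 24 nt made up 16.2% against 1.53%, and those under 24 nt 9.80% against 0.775%. Sequences of 29 to 32 nt made up 9.31% against 23.3%. The most common length was 27 nt in both.

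By gene, Odf1 had the shortest mean of all 9334 genes with 20 or more sequences, 25.5 ± 2.20 nt (SD, n = 39). Prm2 stood at rank 4 with 25.6 ± 1.89 nt (SD, n = 37), Tnp1 at 7 with 25.8 ± 1.71 nt (SD, n = 36) and Akap4 at 12 with 25.9 ± 2.02 nt (SD, n = 25). Crisp2, at 26.5 ± 1.503 nt (SD, n = 28), stood at 166, and none of its sequences was shorter than 24 nt. Acr had the longest mean of the 10 genes, 27.2 ± 1.94 nt (SD, n = 6).

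The share of A at position 10 could not be told from that of other genes. It was found in 68 of 204 sequences (33.3%, 26.9 to 40.3%), against 32.1% in other genes. Prm2 had 20 of 37 (54.1%) and Crisp2 12 of 28 (42.9%), while Odf1 had 8 of 39 (20.5%), and sequences that share a 5′ end share this base.

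Sequences that overlapped on the transcript were counted as 1 group. In Prm2, 33 of 37 fell into 4 groups, at nt 209 to 239 (9 sequences), 287 to 322 (8), 399 to 431 (9) and 561 to 601 (7), counted from the transcript start. In Tnp1, 18 of 36 lay at nt 221 to 290, just past the end of the coding sequence. In Odf1, 19 of 39 (48.7%) lay at nt 247 to 320, near the start of the coding sequence, and the other 20 lay in 11 further groups, 7 of them single sequences. In Tnp2 7 of 8 lay at nt 306 to 380.

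The number of groups followed transcript length only in part. Akap4 (3021 nt) and Crisp2 (2341 nt) had many groups, whereas Acr (1504 nt) and Spata18 (1978 nt) had few sequences and few groups. Akap4 had 14 groups, of which the largest held 6 sequences at nt 2294 to 2341, and Crisp2 had 11, the largest with 8 at nt 1048 to 1108. Acr and Spata18 had 3 and 4 groups, the largest with 3 sequences in each. Sequences covered 51.5% of the Tnp1 transcript, 40.2% of Odf1, 37.2% of Prm2 and 24.5% of Prm1. Akap4 was covered over 13.4%, Acr over 7.11% and Spata18 over 5.92%.

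**Figure D5:**
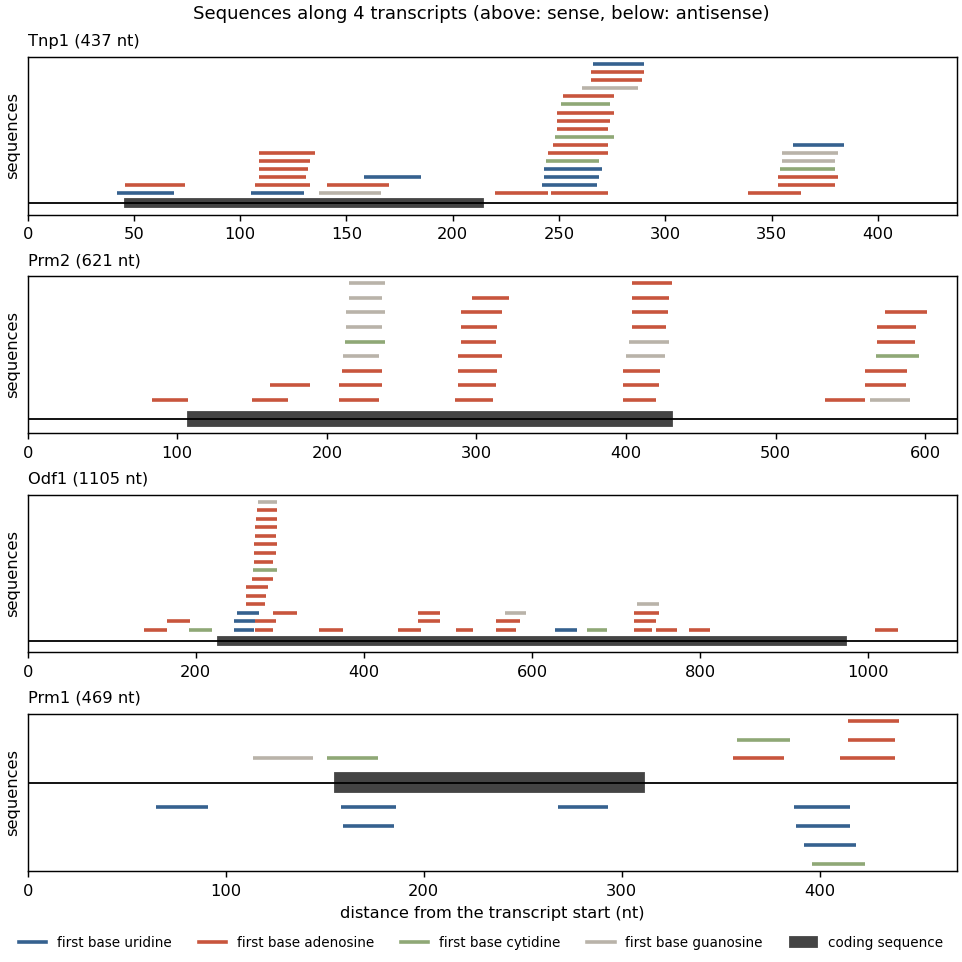
Each bar is 1 distinct sequence on the transcript of Tnp1, Prm2, Odf1 or Prm1 (x axis, distance from the transcript start in nt), coloured by its first base, above the line if sense and below it if antisense; the dark box is the coding sequence and height only separates overlapping sequences. Most sense sequences are red (adenosine) and often stacked where they overlap, and 7 of the 8 Prm1 antisense sequences are blue (uridine).

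Coding sequence held the largest part. Assigned by their midpoints, 64.1% of the sense sequences lay in coding sequence (57.2 to 70.8%), which made up 56.5% of the length of the same transcripts, 30.4% in 3′ untranslated regions (24.2 to 37.2%, length 26.4%) and 5.43% in 5′ untranslated regions (length 17.2%). In all protein-coding genes 53.8% lay in 3′ untranslated regions, on transcripts where these make up 47.4% of the length, and 42.1% in coding sequence.

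The genes differed among themselves in this. Odf1 had 35 of 39 in coding sequence, Prm2 28 of 37, Akap4 22 of 25 and Tnp2 8 of 8. Tnp1 instead had 25 of 36 in the 3′ untranslated region, and Prm1 5 of 7. Without Odf1 the coding share of the remaining genes was 58.1%.

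Antisense sequences were found for 2 of the 10 genes, against 30.0% of all protein-coding genes. Prm1 had 8 and Spata18 had 1, at chr5:74042693-74042719 in the 5′ untranslated region. The Prm1 sequences were 4 over the 3′ untranslated region, 3 over coding sequence and 1 over the 5′ untranslated region. One of them is shown with the sense sequence it meets, since the 2 begin at the same base pair; capitals mark the first and last base.
Prm1 antisense, chr16:10796473-10796500, plus strand: TgtttttcatcggacggtggcatttttC
Prm1 sense, chr16:10796448-10796473, minus strand: AggagcctgctaaggaacaatgccaC
Of the 8 antisense sequences 7 began with U (87.5%, 47.3 to 99.7%) and 0 with A, the reverse of the 7 sense sequences, of which 0 began with U and 4 with A. Among the antisense sequences of all protein-coding genes 73.2% began with U. Their mean length was 26.6 ± 1.06 nt (SD, n = 8), next to 26.7 ± 1.89 nt (SD, n = 7) for the sense sequences.

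No Prm1 pair had the overlap of ping-pong pairs. Overlaps of 5′ ends were counted for all sense and antisense pairs, and 12 pairs overlapped, of which 0 overlapped by 10 nt. An overlap of 1 nt was counted for 4 pairs, the pair shown above among them. These 4 came from 1 position, where 2 sense and 2 antisense sequences began, so they are 1 pair of 5′ ends. None of the 8 antisense sequences had A at position 10.

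More sequences on the strand opposite Prm1 lay around its start. In the 250 bases upstream of the start annotated in RefSeq (GRCm38.p6), matched by sequence, 7 listed sequences lay on the strand opposite the gene and 0 on the same strand. They had 2 different 5′ ends, and 5 of the 7 began with U. They lay at chr16:10796963-10796994 in mm9 coordinates. This range holds the first base of the GENCODE transcript of Prm1 used above, so the 7 sequences partly overlap its 5′ untranslated region. The sequence below is printed to show their form, with its first base in capitals.
Upstream of Prm1, chr16:10796964-10796992, plus strand: Taggaattatgaagtcaaagaggaccagg
No listed sequence on either strand lay in the corresponding windows of Prm2, Tnp1, Tnp2, Akap4, Smcp, Crisp2 and Spata18. Odf1 and Acr were not searched.

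Sequence sharing with other genes touched 1 sequence. One Tnp1 sense sequence also matched 1700027A15Rik, an antisense gene, on the opposite strand, and no other sense sequence of the 10 genes matched another gene. The other members of the Crisp family, Crisp1, Crisp3 and Crisp4, had 0 sense and 0 antisense sequences. Among all 21951 protein-coding genes 6376 likewise had 0 sense sequences.

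Genes of related roles were listed by function to see how far the pattern reached. Beside the counts of genes with sequences in these lists stands the 71.0% of all protein-coding genes with at least 1. Of 10 further sperm tail genes 9 had sense sequences, 209 in all, of which 31.6% began with U (25.3 to 38.3%) and 30.6% had a 5′ end between C or U and A. The densest were Odf2, another outer dense fibre protein (11.3 per kb, 32 U starts of 112), and Tekt2, a tektin of the axoneme (8.95 per kb, 2 U starts of 17). Of the Tekt2 sequences 7 also matched another gene on the opposite strand. Ropn1, a fibrous sheath protein, had 0. The U share of the 209 sequences thus lay between that of the 10 genes and that of all others, but the genes differed widely. Odf2 alone gave 112 of the 209. Named after their values were seen, Gapdhs had 1 U start of 13, Akap3 5 of 22 and Odf3 0 of 1. Fscb had 3 of 8 and Odf4 4 of 8, whereas Spag6l had 13 of 20 and Spata19 6 of 8. The mean length of the sequences of these tail genes was 26.4 ± 1.70 nt (SD, n = 209).

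Taken as wholes, the other lists stood closer to the remaining genes. The 8 genes of nuclear condensation had 278 sense sequences with 60.8% U starts and 12.6% such 5′ ends, and were led by Brdt, a bromodomain protein (18.6 per kb, 62.1% U starts), and Rnf8, a ubiquitin ligase (7.78 per kb). These 2 genes gave 95 and 91 of the sequences, and 53 of the 91 of Rnf8 also matched another gene in the sense direction. The smallest numbers in this list went the other way: Prm3, H1fnt and Hils1, named here after their values were seen, had 2, 1 and 3 sequences, all with A starts, and 1, 1 and 3 such 5′ ends. Of 8 acrosome and egg-binding genes 7 had sequences, 125 in all with 68.8% U starts, led by the zona pellucida binding protein genes Zpbp (15.1 per kb, 79.7% U starts) and Zpbp2 (10.7 per kb, 7 U starts of 18). Spam1, a sperm hyaluronidase, had 0. All 10 genes of transcription and mRNA storage had sequences, 592 in all with 61.5% U starts, led by Paip2, which restrains the poly(A)-binding protein (41.8 per kb, 67.6% U starts) and Papolb, the testis poly(A) polymerase (32.1 per kb, 73.5% U starts). Paip2 and Papolb gave 148 and 136 of these sequences. Named after their values were seen, Ybx2 had 4 U starts of 22 and 13 such 5′ ends, and Ybx3 10 of 36 and 14. Kif17 had 8 U starts of 26 and 5 such ends, and the only Fhl5 sequence began with A. Crem (36 of 53), Tbpl1 (63 of 97), Rfx2 (32 of 55) and Tarbp2 (11 of 18) had mostly U starts.

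Genes of earlier germ cells had the usual first base. The 4 spermatogonial markers had 896 sense sequences with 69.2% U starts and 5.36% of 5′ ends between C or U and A, and the 4 meiotic markers had 627 with 60.4% and 7.02%. By gene the U share ran from 49.4% in Stra8 (n = 160) to 77.8% in Zbtb16 (n = 284). The lower quartile over genes with 20 or more sense sequences was 56.5%. Beside these, the 10 spermatid genes had 14.2% and 52.9%. What lies behind the difference was not tested, and since the list joins adult and 15-day testis it cannot be said from which library these sequences came.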

How the data were processed

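Small RNAs from 3 immunoprecipitates of mouse testis (Tdrd1, adult; Mili, adult wild type; Mili, Tdrd1 knockout at 15 days) were eluted from a gel at about 28 to 30 nt, per the labels' protocols. The authors deposited 1 list of 2219118 distinct sequences with chromosome, start and end, a listed sequence being neither a count nor another level. Positions refer to NCBI mouse build 37 per the file headers, and mm9 is named in the submitters' processing notes. Information on the aligner, the mismatches allowed and sequences with several positions was not given in the sources used here. Depth is unknown.

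Each sequence was matched exactly, end to end and on either strand, to GENCODE vM21 transcripts on the listed chromosome (seed of 18 nt, numba 0.67.0, numpy 2.4.6, pandas 2.3.3, Python 3.11.15), which placed 58.8% of the list. The matching was tested on simulated sequences. Density is the number of different sense sequences divided by the kb of merged exon. Exact Clopper-Pearson 95% intervals came from scipy 1.17.1. Coordinates are those of the list; ranges of a gene run from the first to the last sense sequence. Upstream windows came from RefSeq (GRCm38.p6).

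The 10 genes and all lists were chosen with earlier results of these data known. Named were the 10 genes and, of each of the 5 lists of related genes, the 2 densest genes and those with 0 sense sequences. Cell type markers were only summarised, and the markers and other genes named beside these were chosen after their values were seen, except Prm3 as a neighbour of Prm1. With 1 library per group and a joined list no test across conditions was made. Alternatives were a length limit of 24 to 32 nt, each 5′ end counted once, sequences of other genes left out, the longest transcript, and single genes left out.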

Additional observations from a re-analysis of the deposited data

How the results depend on the processing

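Of 79 alternative values 75 stayed within their interval or within 1.5 times a count, 4 moved and 0 reversed. Mean length moved from 25.9 nt to 26.3 nt both with sequences of 24 to 32 nt only and with each 5′ end counted once. The share of 5′ ends between C or U and A moved from 52.9% to 45.0% (37.1 to 53.1%) with each end counted once, an alternative added after the data were seen, and Prm2 density moved from 41.4 to 25.7 per kb when each 5′ end counted once. The U share ran from 13.8% without sequences of other genes to 17.4% without Prm2, the latter also added. The 3′ share ran from 46.3 to 53.8%. No paired analysis was possible because each group is 1 library and the list names none. Depth is unknown, and shares over fewer than 10 sequences have wide intervals.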

Other observations

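Other genes with few U starts, all chosen after their values were seen, were looked at for their ends. Gapdhs, the sperm glyceraldehyde phosphate dehydrogenase, had 1 U start among 13 sense sequences and 9 of 13 5′ ends between C or U and A. Akap3, a fibrous sheath scaffold, had 5 U starts of 22 and 10 such ends, and Ybx2, which binds stored germ cell mRNAs, had 4 of 22 and 13. Gsg1 had 2 U starts of 23 (56.5% such ends), Hrasls5 3 of 21 (57.1%) and Adam5, a sperm surface protein, 6 of 38 (52.6%). Insl3, a hormone gene of Leydig cells, which are not germ cells, had 0 U starts of 7 and 5 such ends, and 6 of its 7 sequences also matched another gene in the sense direction, so they may not come from Insl3. Star, another marker of these cells, had 53 U starts of 78 (67.9%).

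Few U starts did not always come with such ends. Abcg2, a membrane transporter, had 4 U starts of 27 but 7.41% of 5′ ends and 0% of 3′ ends between C or U and A, with a mean length of 27.4 nt. Ergic3 had 3 of 20 and 15.0% of such 5′ ends, and Hist1h4c, a histone gene, 8 of 51 and 15.7%.

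Antisense sequences outnumbered sense ones in Odf3 and Tssk6, named after their values were seen. Odf3, a tail gene, had 41 antisense and 1 sense sequence, and Tssk6, a kinase needed for spermatid nuclear shaping, had 26 and 5. Gapdhs had 12 antisense and 13 sense sequences. Whether the antisense sequences of these 3 genes also match another gene in the sense direction was not tested.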
